A study of Phragmites australis with 7 samples.

Results

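The cohesin genes described here are 4 genes of common reed (Phragmites australis): PaChr24.218 and PaChr24.240, which lie on chromosome 24, the B chromosome of the assembly, and PaChr10.167 and PaChr21.972 on chromosomes 10 and 21. The study names the B chromosome pair SCC3 and found the other 2 genes in the same cluster of its gene tree; they are called homologues here. These 4 genes were taken by name from the 42095 genes listed for the single-cell libraries and the 42035 listed for the section, and all 4 were listed and detected in both. RNA was counted in single cells of rhizome shoots from 6 plants, 3 invasive North American plants (NAint61, NAint113, NAint191) and 3 European plants (EU60, EU78, EU620), and in 1 frozen shoot section of NAint61. All plants came from 1 common garden and received no treatment, and each library pooled several buds of 1 plant, so p-values measure the spread between plants. The labels call the tissue shoot, while the protocol in the labels speaks of the rhizome tip.

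Cohesin is a ring of SMC1, SMC3 and a kleisin subunit (SCC1, also called RAD21) that holds sister chromatids together until anaphase and folds chromatin in interphase. SCC3, called STAG in animals, binds the kleisin and is needed for the ring to load onto chromatin and stay there. B chromosomes are supernumerary chromosomes that some individuals of a species carry and others lack, and they often pass to offspring at more than the Mendelian rate.

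After filtering, 57798 of 67194 cells were kept, 6478 to 13189 per library, with 74518124 to 123257707 unique molecular identifiers (UMIs) per library. They fell into 33 clusters, of which 26 could be named by the marker genes of the study. Between any 2 libraries 14 to 52 cell barcodes were shared, at most 0.451% of the smaller library. The labels place NAint113, EU60 and EU78 in batch 1, NAint191 and EU620 in batch 2 and NAint61 alone in batch 3. The notes of the study set NAint113 and EU620 apart by their sequencing per cell.

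Both B copies were abundant in invasive shoots and nearly absent from European shoots. PaChr24.240 gave 9961, 9228 and 6258 UMIs in NAint61, NAint113 and NAint191, against 9, 10 and 8 UMIs in EU60, EU78 and EU620. PaChr24.218 gave 2127, 2190 and 1583 UMIs in the invasive libraries in the same order, against 3, 3 and 1 UMIs in the European libraries. As counts per 1000000 UMIs (CPM), PaChr24.240 stood at 134, 90.5 and 72.8 in invasive shoots, against 0.0770, 0.0811 and 0.0799 in European shoots. NAint61 was the highest library for both copies, and the European libraries lay within a narrow band for PaChr24.240. PaChr24.218 stood at 28.54, 21.48 and 18.41 CPM in invasive shoots, against 0.0257, 0.0243 and 0.00999 CPM in European shoots. The lowest invasive library was 897-fold above the highest European one for PaChr24.240 and 717-fold above it for PaChr24.218. Pooled over libraries, the ratio of invasive to European level was 1222 for PaChr24.240 (95% counting interval 839 to 1854) and 1093 for PaChr24.218 (530 to 2719). A whole-shoot sum cannot tell a change in the number of expressing cells from a change in RNA per cell.

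The homologues were present in both populations, in overlapping ranges. PaChr10.167 had 12.69, 9.89 and 9.28 CPM in NAint61, NAint113 and NAint191, against 10.74, 10.38 and 11.02 CPM in EU60, EU78 and EU620, and the groups overlapped. PaChr21.972 had 10.15, 9.72 and 5.39 CPM in the invasive libraries, against 3.58, 6.91 and 5.71 CPM in the European libraries, and these groups overlapped as well. The mean level of PaChr10.167 was 10.621 ± 1.82 CPM in invasive shoots and 10.710 ± 0.321 CPM in European shoots (SD, n = 3 each). That of PaChr21.972 was 8.42 ± 2.63 CPM in invasive shoots and 5.40 ± 1.69 CPM in European shoots (SD, n = 3 each).

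**Figure D1:**
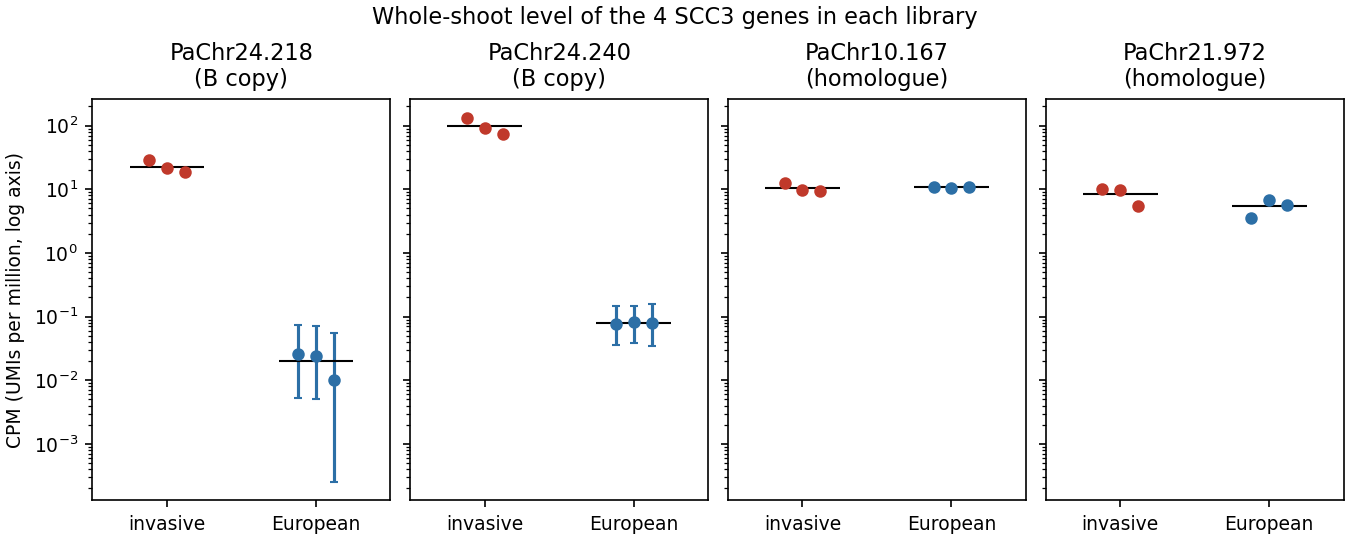
Whole-shoot level of each SCC3 gene in CPM on a log axis, with 1 point per library and the invasive libraries left of the European ones. For the B copies the lowest invasive point is 717-fold or more above the highest European one, while the 2 homologues overlap between the populations.

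Whole-shoot sums were compared with edgeR's quasi-likelihood test, with mean reads per cell as a covariate, over 33256 genes, and genes were called at a Benjamini-Hochberg adjusted p under 0.05 and a log2 fold change beyond 1. PaChr24.240 rose by 10.20 on the log2 scale in invasive shoots (SE 0.49, edgeR adjusted p = 0.0066), and PaChr24.218 rose by 9.91 (SE 0.52, edgeR adjusted p = 0.0066). They were 2 of only 6 genes called higher, 0.018% of the genes tested, while 1 gene (0.00301%) was called lower. Folds of this size rest on a few European UMIs and depend on the prior count of the fit. PaChr10.167 had a log2 fold change of -0.06 (SE 0.31, edgeR adjusted p = 0.952) and PaChr21.972 one of 0.56 (SE 0.46, edgeR adjusted p = 0.672), so neither homologue was called. At an unadjusted p under 0.05 the test held 3305 genes, and DESeq2 called 524 genes higher and 404 lower (2.9% of the genes it tested), the 2 B copies among the higher ones and neither homologue in either set. In simulated counts with the means and library sizes of this comparison, 0 of 40 genes changed by 4-fold were called and 38 of 40 genes changed by 1024-fold, so a change of the size measured for PaChr21.972 was not detectable with 3 plants per population. Of all genes, 3.49% had every invasive library above every European one and 2.8% every invasive library below, and of the 106 B chromosome genes tested, 61.3% had every invasive library above.

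Without EU60, EU78, EU620 or NAint61 in turn, the adjusted p of both B copies was 0.205, 0.106, 0.165 and 0.0777 by edgeR, at log2 fold changes of 9.61 to 10.02 for PaChr24.218 and 10.01 to 10.35 for PaChr24.240. Both copies stayed called without NAint113 and without NAint191. Without NAint113 and EU620 together, the log2 fold changes were 9.34 for PaChr24.218 and 9.62 for PaChr24.240, with an edgeR adjusted p of 0.0627 for both. Within batch 1, PaChr24.240 stood at 90.5 CPM in NAint113, against 0.0770 and 0.0811 CPM in EU60 and EU78. Within batch 2 it stood at 72.8 CPM in NAint191, against 0.0799 CPM in EU620, and batch 3 holds no European library. With the batch label in the fit in place of mean reads per cell, the log2 fold change was 10.10 for PaChr24.240 and 10.04 for PaChr24.218 (edgeR adjusted p = 0.016 and 0.0188).

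Of all UMIs of the 4 SCC3 genes, the B copies gave 87.7%, 85.1% and 86.1% in NAint61, NAint113 and NAint191, against 0.713%, 0.606% and 0.534% in EU60, EU78 and EU620. The means were 86.3% ± 1.29 in invasive shoots and 0.618% ± 0.0896 in European shoots (SD, n = 3 each), and the populations did not overlap (two-sided exact permutation test, p = 0.1, the smallest that 3 against 3 allows). Summed over the 4 genes, SCC3 stood at 185, 132 and 106 CPM in the invasive libraries, against 14.42, 17.4 and 16.8 CPM in the European libraries. On the log2 scale the sum was 3.09 higher in invasive shoots (two-sided exact permutation test, p = 0.1). The B copies together were 7.10, 5.71 and 6.22 times the homologues in NAint61, NAint113 and NAint191.

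The B copies were then compared with each other. Libraries made from 3′ ends count a transcript once whatever its length, so UMI counts were not divided by length, and unequal capture of the 2 transcripts was not tested. In single cells PaChr24.218 was the lower copy: the log2 ratio of PaChr24.218 to PaChr24.240 was -2.23, -2.08 and -1.98 in NAint61, NAint113 and NAint191, against -1.58, -1.74 and -3.00 in EU60, EU78 and EU620, the European ratios resting on 3, 3 and 1 UMIs of PaChr24.218. PaChr24.240 was thus above PaChr24.218 in 6 of 6 libraries (mean log2 ratio -2.10, two-sided exact sign-flip permutation test, p = 0.031, the smallest that 6 libraries allow). The mean ratio was -2.10 ± 0.12 in invasive libraries and -2.11 ± 0.78 in European libraries (SD, n = 3 each), a difference of 0.01 (two-sided exact permutation test, p = 1.0). When clusters were given equal weight, the mean ratio over the 6 libraries was -1.15 (exact sign-flip permutation p = 0.0938).

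For the homologues, the log2 ratio of PaChr10.167 to PaChr21.972 was 0.32, 0.02 and 0.79 in the invasive libraries, against 1.58, 0.59 and 0.95 in the European libraries. PaChr10.167 was above PaChr21.972 in 6 of 6 libraries, by 0.71 on average (two-sided exact sign-flip permutation test, p = 0.031). The ratio was lower by 0.66 in invasive libraries, within the spread between plants (two-sided exact permutation test, p = 0.2). With any 1 library left out, the smallest p a sign-flip test can give is 0.0625, for both pairs of genes.

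Cell by cell, PaChr24.240 had at least 1 UMI in 56.9%, 43.6% and 44.3% of the cells of NAint61, NAint113 and NAint191, against 0.0822%, 0.0870% and 0.123% of the cells of EU60, EU78 and EU620. PaChr24.218 had one in 23%, 14% and 15% of invasive cells, against 0.0274%, 0.0261% and 0.0154% of European cells. Free RNA gives stray UMIs in droplet data, and its part in the European shares was not tested. PaChr10.167 had one in 11.3%, 7.01% and 8.24% of invasive cells, against 10.29%, 9.70% and 14.2% of European cells. PaChr21.972 had one in 9.59%, 7.01% and 4.91% of invasive cells, against 3.57%, 6.602% and 7.89% of European cells. Depth per cell differed between libraries, so each cell was also thinned to 2000 UMIs. Shares then averaged 18.9% ± 4.41 of invasive cells and 0.0206% ± 0.0212 of European cells for PaChr24.240, and 5.2% ± 1.03 of invasive and 0% of European cells for PaChr24.218 (SD, n = 3 each). The thinned shares of PaChr10.167 were 2.2% ± 0.111 in invasive cells and 2.2% ± 0.307 in European cells, and those of PaChr21.972 were 1.78% ± 0.683 in invasive cells and 1.21% ± 0.332 in European cells (SD, n = 3 each).

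At least 1 B copy was seen in 60.8%, 48.8% and 50.3% of the cells of NAint61, NAint113 and NAint191, against 0.110%, 0.113% and 0.139% of the cells of EU60, EU78 and EU620. At least 1 homologue was seen in 18.4%, 13.22% and 12.5% of the invasive cells, against 13.25%, 14.97% and 20.2% of the European cells. Most invasive cells with an SCC3 UMI therefore had it from a B copy alone: 45.4%, 40.3% and 42.1% of cells in NAint61, NAint113 and NAint191. The European UMIs of the B copies lay in 12, 13 and 9 cells of EU60, EU78 and EU620, never more than 1 UMI of a copy in a cell. These cells were scattered over 9, 8 and 7 clusters, and none of their barcodes occurred in an invasive library. Only 0.986%, 0.722% and 0.617% of all cells of EU60, EU78 and EU620 had such a barcode, so an absence among so few cells is not informative.

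Cells with both B copies were more numerous than expected from depth. Over the 3 invasive libraries, 3301 cells held both, against 2731 expected from cells of like total UMIs, a ratio of 1.17 to 1.24 per library. PaChr10.167 and PaChr21.972 occurred together in 677 cells of the 6 libraries, against 547 expected, a ratio of 1.14 to 1.39 per library. Pairs of a B copy with a homologue had ratios of 1.06 to 1.32. Cells are not replicates, and these ratios carry no test.

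By tissue, the log2 fold change was 9.56 to 11.999 for PaChr24.240 and 6.99 to 12.103 for PaChr24.218 over 5 tissues. PaChr24.240 was called in parenchyma and mesophyll and PaChr24.218 in parenchyma. Parenchyma consisted of parenchyma 1 (cluster 15) alone, so its calls here and in the cluster fits below are the same fit of the same counts. Such calls were 0.00487% of all gene and tissue tests, 0.0252% of those in parenchyma and 0.00809% of those in mesophyll, and both copies had an unadjusted p under 0.05 in 5 of 5 tissues by edgeR. DESeq2 called both copies in 5 of 5 tissues, beside 1.79% of its gene and tissue tests. Neither homologue was called in any tissue by edgeR or DESeq2, and neither had an unadjusted p under 0.05 there. In parenchyma, PaChr24.240 gave 242, 156 and 117 UMIs in NAint61, NAint113 and NAint191 and 0 UMIs in each European library (edgeR adjusted p = 0.00463). Without NAint113, EU60 or EU78 the tissues with a call for PaChr24.240 were 1, and without EU620 they were 0; for PaChr24.218 they were 0 without EU620 and 2 without NAint191.

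Of the 29 clusters with enough cells in every library, PaChr24.240 was called higher in invasive cells in 10 and PaChr24.218 in 4 of the 28 in which it passed the filter on low counts (edgeR, log2 fold change over 2; calls were 0.00739% of all gene and cluster tests and at most 0.042% of those in 1 cluster). The 4 clusters of PaChr24.218 were vascular parenchyma (cluster 0), ground meristem (1), protoderm 1 (9) and parenchyma 1 (15), and PaChr24.240 was called in each of these too, beside 0.0145%, 0.0185%, 0.0334% and 0.0252% of all genes tested there. The other 6 clusters of PaChr24.240 were phloem 1 (5), both mesophyll clusters (11 and 26), epidermal cell 2 (12), xylem (21) and the unnamed cluster 14, where calls were 0.0158% (5), 0.0128% (11), 0.0108% (26), 0.00923% (12), 0.042% (21) and 0.0173% (14) of the genes tested. PaChr24.240 had an unadjusted p under 0.05 in 29 clusters and PaChr24.218 in 28, with log2 fold changes of 7.56 to 11.87 and 5.62 to 10.49, and DESeq2 called them in 29 and 22 (0.663% of its gene and cluster tests). Neither homologue was called in the 27 clusters that tested it, by edgeR or DESeq2, and neither reached an unadjusted p under 0.05 in any of them by edgeR. The number of clusters depended on single libraries: for PaChr24.240 it was 5 without NAint61, 1 without NAint113, 3 without EU60, 1 without EU78 and 1 without EU620. For PaChr24.218 it was 1 without NAint113, 1 without EU60, 1 without EU78 and 0 without EU620.

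Levels varied several-fold between clusters. In invasive cells both B copies were highest on average in parenchyma 1 (cluster 15), a cluster named by the marker PaChr10.340 (FBN4, a fibrillin of the plastid) and 2 others. PaChr24.240 reached 575, 223 and 275 CPM there in NAint61, NAint113 and NAint191, and PaChr24.218 reached 188, 62.8 and 84.6 CPM. Bundle sheath cells (cluster 10) came next, and there the libraries were far apart: PaChr24.240 had 348, 67.6 and 182 CPM in NAint61, NAint113 and NAint191. The unnamed cluster 4 followed, with 166.6 ± 70.8 CPM of PaChr24.240 and 34.5 ± 13.7 CPM of PaChr24.218 (SD, n = 3). PaChr24.240 was lowest in epidermal cell 2 (cluster 7) with 58.8 ± 16.11 CPM and PaChr24.218 in phloem 2 (cluster 25) with 12.6 ± 3.20 CPM (SD, n = 3), and the medians over clusters were 97.5 and 20.5 CPM. The homologues were also highest in parenchyma 1 in invasive cells, with 26.7 ± 8.78 CPM of PaChr10.167 and 27.0 ± 16.85 CPM of PaChr21.972 (SD, n = 3). For none of the 4 genes did any 2 neighbours in the order of clusters separate beyond the spread over the invasive libraries (0 of 28 adjacent pairs).

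The leading clusters had little RNA per cell. Parenchyma 1 had a median of 2261 UMIs per cell, bundle sheath 3190 and cluster 4 1443, against 8650 in vascular parenchyma (cluster 0). Over the 29 clusters the level in invasive cells and the log2 median UMIs per cell had a Pearson r of -0.61 for PaChr24.240, -0.53 for PaChr24.218, -0.32 for PaChr10.167 and -0.33 for PaChr21.972. The part of cell depth in the order of the clusters was not tested.

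**Figure D2:**
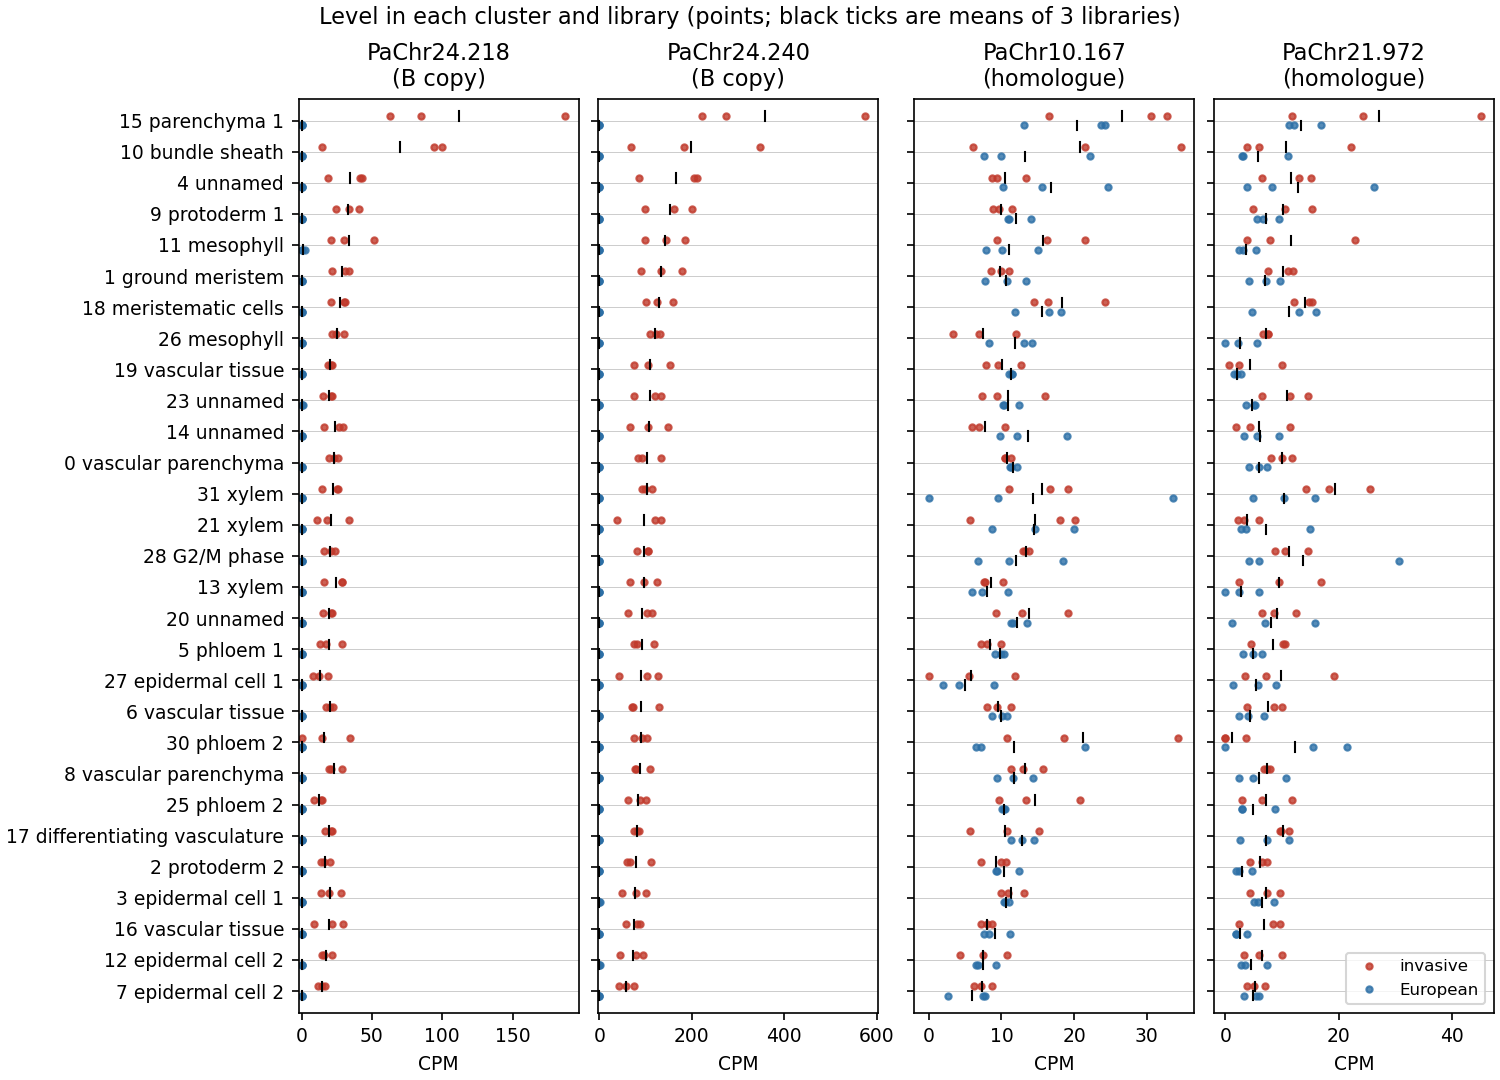
Level of each SCC3 gene in CPM in the 29 clusters, with 1 point per library, invasive and European, and a black tick at the mean of 3 libraries. Both B copies lie near 0 in all European clusters and are highest in parenchyma 1 in invasive cells, where the points of the 3 plants spread widely.

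Since cohesin acts in dividing cells, the meristematic cluster (18) and the G2/M cluster (28) were set beside the others. PaChr24.240 had 160, 102 and 125 CPM in the meristematic cluster of NAint61, NAint113 and NAint191, and 0 UMIs in that of EU60, EU78 and EU620. All 4 genes lay above the median of the other clusters in the meristematic cluster of 3 of 3 invasive libraries, and the homologues did so in 3 of 3 European libraries. In NAint113 both B copies were only 1.03 times that median, with PaChr24.218 at rank 14 and PaChr24.240 at rank 15 of 29 clusters. PaChr10.167 averaged 18.39 ± 5.164 CPM in invasive and 15.53 ± 3.287 CPM in European meristematic cells (SD, n = 3 each). In no library was the meristematic cluster above all others for any of the 4 genes, while the G2/M cluster was above all others for PaChr21.972 in EU78, with 30.7 CPM. In the G2/M cluster PaChr24.240 was above the median in 2 and PaChr24.218 in 1 of 3 invasive libraries. Of the homologues, PaChr10.167 was above it there in 3 of 3 invasive and 2 of 3 European libraries and PaChr21.972 in 2 of 3 invasive and 3 of 3 European libraries. By mean level the G2/M cluster was the highest European cluster for PaChr21.972, at 13.65 CPM, of which EU78 supplied most, since EU60 and EU620 had 4.23 and 6.004 CPM.

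PaChr24.218 made up the smaller part of the B copies in all 29 clusters described. In the 28 clusters with at least 20 UMIs of the B copies in each invasive library, its mean share ranged from 13.5% in cluster 27 (epidermal cell 1) to 24.80% in bundle sheath cells. In bundle sheath the share was 22.4%, 18.0% and 34.0% in NAint61, NAint113 and NAint191, so that NAint191 stood apart there. In ground meristem, with more UMIs, it was 16.05%, 18.9% and 19.5% in the same libraries. Across the 28 clusters the share had a Pearson r of 0.37 between NAint61 and NAint113, 0.24 between NAint61 and NAint191 and -0.08 between NAint113 and NAint191. The SD between plants within a cluster averaged 2.92 percentage points, against an SD of 2.42 between cluster means. Across clusters the levels of the B copies had a mean r of 0.77 over 3 invasive libraries (0.63 to 0.85), and those of the homologues one of 0.26 over 6 libraries (-0.11 to 0.63). Between a B copy and a homologue the mean r was 0.38 to 0.52, and the points of 1 library share its depth and composition.

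**Figure D3:**
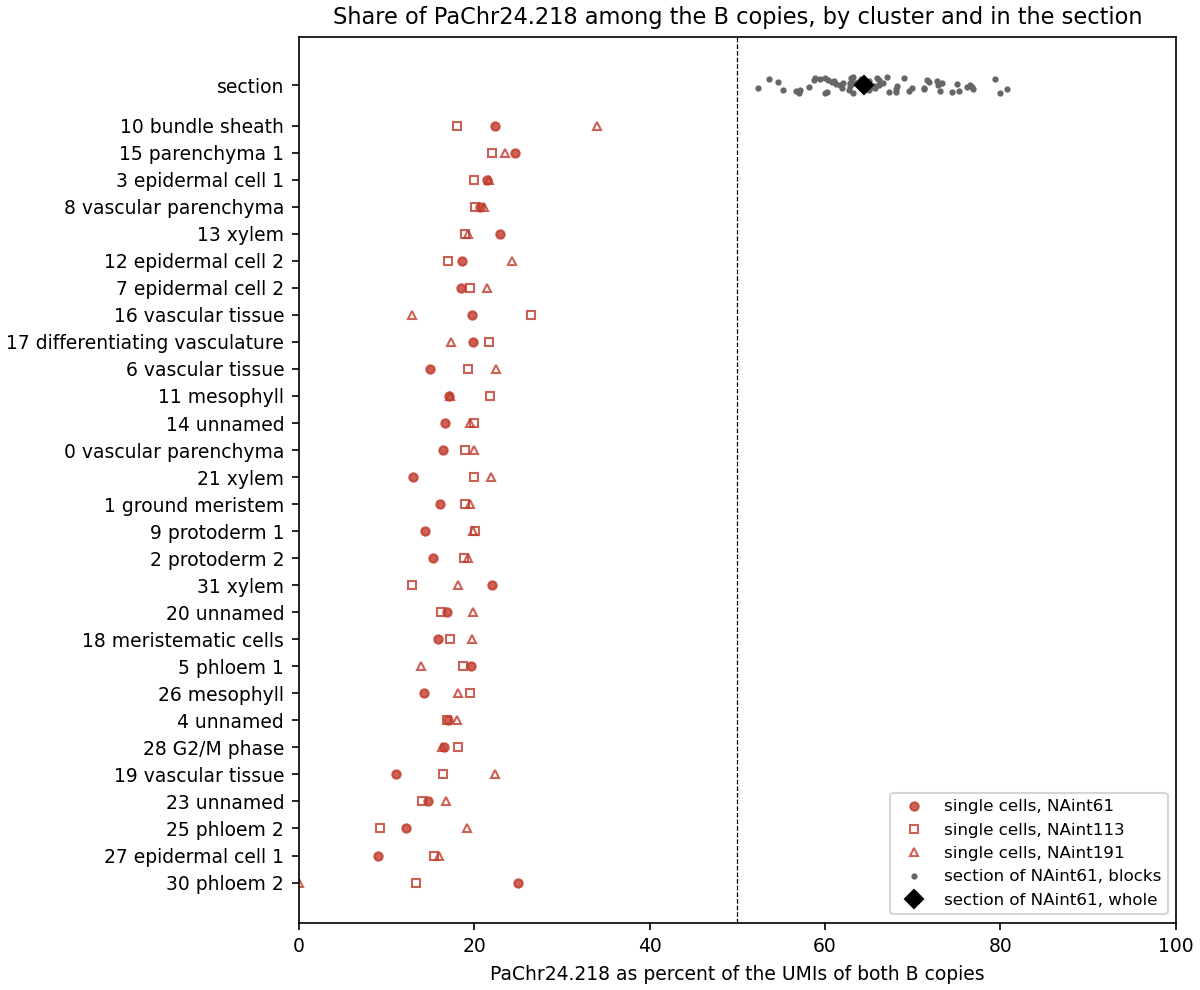
Share of PaChr24.218 in the UMIs of both B copies, in percent, for each cluster in the 3 invasive libraries and for the section of NAint61. The cluster means reach at most 24.80%, left of the 50% line, and the section lies at 64.4%.

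The section of NAint61 held 78619 segmented cells and 43513204 UMIs, with a median of 371 UMIs per segmented cell, and a segmented cell can hold RNA of its neighbours. There the order of the B copies was the opposite of that in single cells. PaChr24.218 gave 11413 UMIs (262 CPM) and PaChr24.240 6298 UMIs (145 CPM) in the section, against 28.54 CPM and 134 CPM in single cells from that plant. PaChr24.218 made up 64.4% of the UMIs of the B copies in the section (95% exact binomial interval 63.7 to 65.1, counting error only). PaChr10.167 gave 53.7 CPM in the section and 12.69 CPM in the single cells, and PaChr21.972 gave 13.9 CPM in the section and 10.15 CPM in the single cells. The section was 9.19-fold above the single cells for PaChr24.218, 1.08-fold for PaChr24.240, 4.23-fold for PaChr10.167 and 1.37-fold for PaChr21.972.

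Many genes differed between the assays. Over 21882 genes the median of the log2 ratio of section to single cells was 0.95 (5th to 95th percentile -2.14 to 3.275), so that PaChr24.218 lay at the 94.6th percentile, PaChr10.167 at the 80.9th, PaChr21.972 at the 35.3rd and PaChr24.240 at the 26.7th. Among 36 B chromosome genes with enough UMIs, PaChr24.218 ranked 5th and PaChr24.240 29th by this ratio. The share of the B copies in all SCC3 UMIs was 85.8% in the section and 87.7% in the single cells of NAint61, close to each other although the copy that supplied most of it differed. There is 1 section and 1 library of this plant, labelled batch 1 and batch 3. The batch label, the assay, the aligner and the preparation of the tissue differ between them and cannot be told apart. Near-identical copies can share reads, and how the 2 pipelines place such reads was not tested.

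**Figure D4:**
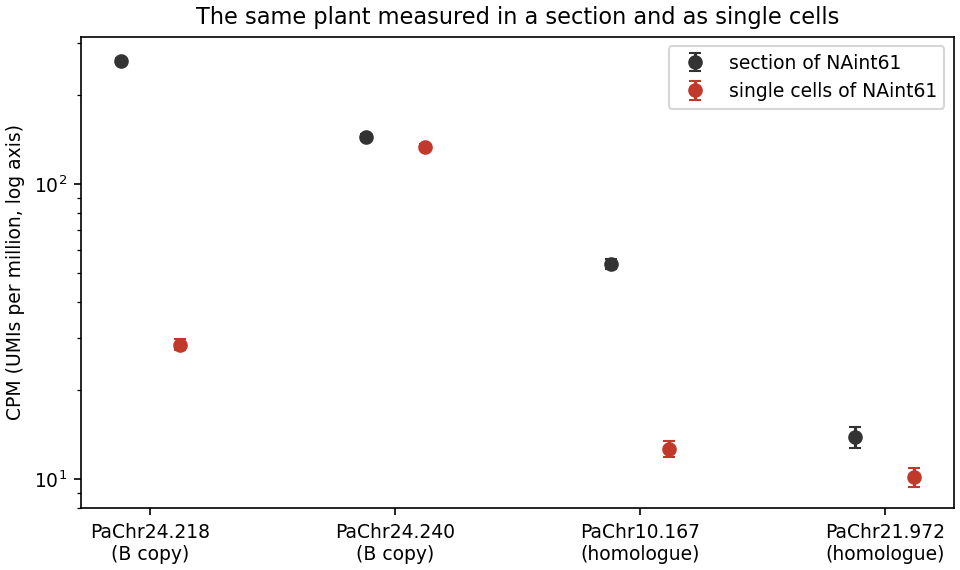
Level of the 4 SCC3 genes in CPM on a log axis in the section of NAint61 and in single cells from that plant. PaChr24.218 is at 262 CPM in the section and 28.54 CPM in single cells, while PaChr24.240 is at 145 CPM and 134 CPM.

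Where UMIs were numerous, PaChr24.218 was the higher copy throughout the section. In a grid of 16 by 16 blocks, 69 blocks held at least 50 UMIs of the B copies, and PaChr24.218 was the more abundant copy in 69 of 69, with 52.3% to 80.8% (median 65.1%). In the 116 blocks with fewer UMIs of the B copies, 923 UMIs in all, PaChr24.218 was above PaChr24.240 in 74 and below it in 34. Over the 69 blocks with at least 50 UMIs, PaChr24.218 ranged from 87.0 to 602 CPM (median 310) and PaChr24.240 from 38.8 to 356 CPM (median 144). In the same 69 blocks PaChr10.167 ranged from 4.85 to 126 CPM and PaChr21.972 from 0 to 37.9 CPM. PaChr24.218 had at least 1 UMI in 12.16% of segmented cells, PaChr24.240 in 7.10%, PaChr10.167 in 2.727% and PaChr21.972 in 0.726%. The B copies occurred together in 1629 segmented cells, 1.48 times the number expected from cells of like depth (95% counting interval 1.41 to 1.55), and the homologues in 43, 1.48 times the expected number (1.07 to 1.99).

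Among neighbouring segmented cells of the whole section, likeness was greater for the B copies than for most genes. Moran's I, computed over 6 neighbouring segmented cells and near 0 where neighbours are no more alike than other cells, was 0.132 for PaChr24.218, 0.108 for PaChr24.240, 0.0867 for PaChr10.167 and 0.0726 for PaChr21.972, against a median of 0.082 over 16499 genes. These values lay at the 93.0th percentile of those genes for PaChr24.218, the 86.3rd for PaChr24.240, the 64.4th for PaChr10.167 and the 14.19th for PaChr21.972. The genes were not matched for level. Total UMIs had a Moran's I of 0.692 on a log scale, and the part of depth in these values was not tested. The section was split into 2 pieces of tissue at the widest gap between segmented cells along the second position, after the map had been seen. Sparse blocks between the denser parts also held segmented cells, and each was counted with a piece. The second piece, with a median of 299 UMIs per segmented cell, had 416 CPM of PaChr24.218 and 223 CPM of PaChr24.240, against 129 CPM and 77.3 CPM in the first, with a median of 582 UMIs. These ratios of 3.232 and 2.879 lay at the 93.1st and 91.0th percentile of 16499 genes. PaChr21.972 had 20.9 CPM in the second piece and 7.76 CPM in the first, a ratio of 2.694, and PaChr10.167 had 67.4 CPM in the second and 41.9 CPM in the first, a ratio of 1.61. The other B chromosome genes moved the same way, with 1937 CPM in the second piece and 738 CPM in the first, while the chromosome cycle genes described below had 421 CPM in the second and 538 CPM in the first. PaChr24.218 made up 65.2% of the B copies in the second piece and 62.5% in the first. Across blocks, the B copies had a Pearson r of 0.62 in the second piece (44 blocks) and of -0.02 in the first (25 blocks).

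**Figure D5:**
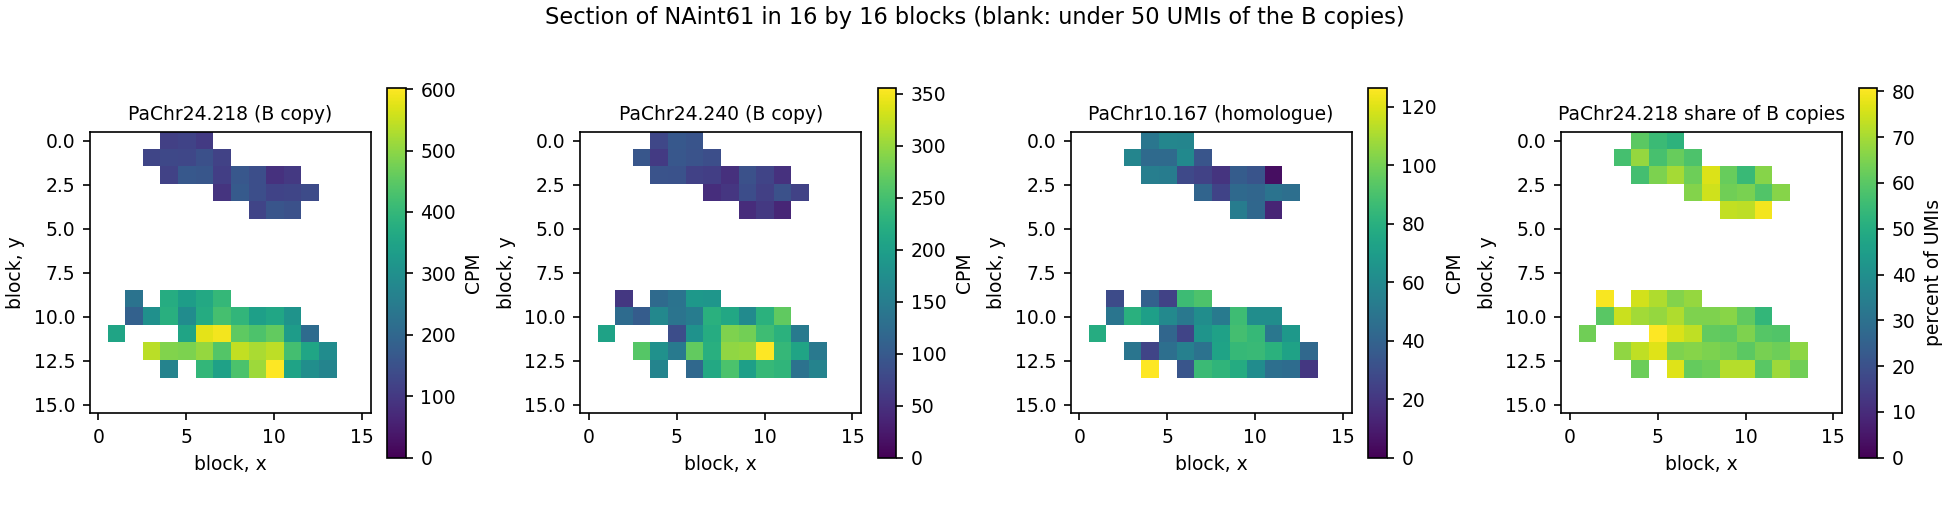
Map of the section in 16 by 16 blocks, coloured by the level of the B copies and by the share of PaChr24.218 among them, with blocks under 50 UMIs left blank. The higher levels lie in 1 of the 2 pieces of tissue, while the share of PaChr24.218 stays above 50% in each of the 69 blocks shown.

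The B copies were among the most abundant B chromosome genes. In invasive single cells PaChr24.240 ranked 2nd and PaChr24.218 5th by mean CPM, behind PaChr24.43, which the study names IMP-α3. Importin alpha carries proteins into the nucleus. The study finds the product of PaChr24.43 truncated and concludes that this gene is likely a pseudogene. PaChr24.43 had 161, 208 and 170 CPM in NAint61, NAint113 and NAint191, against 1.03, 0.0325 and 0.0899 CPM in EU60, EU78 and EU620. The edgeR fold change of PaChr24.43 was 8.70 on the log2 scale with an adjusted p of 0.306, and EU60 stood apart among the European libraries. All 285 B chromosome features together gave 748, 617 and 488 CPM in the invasive libraries, against 113, 49.9 and 76.1 CPM in the European libraries. The SCC3 copies made up 21.7%, 18.16% and 18.7% of this in invasive libraries, against 0.0912%, 0.211% and 0.118% in European libraries. The SCC3 copies thus took a smaller part of the UMIs counted on B chromosome features in European shoots than in invasive shoots. From genome read depth the study proposes that its European plants nearly lack B chromosomes. The origin of the European UMIs on B chromosome features was not tested. In the section, PaChr24.218 ranked 1st and PaChr24.240 3rd of the B chromosome genes.

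Of the other 283 B chromosome genes, 104 passed the filter on low counts, which a gene can pass through invasive libraries alone. Of these, 4 were called higher and 0 lower by edgeR, against 0.018% and 0.00301% of all genes, and 60 had an unadjusted p under 0.05, against 3305 of 33256 genes. DESeq2 called 46 higher and 2 lower of 91, against 2.9% of all genes in either direction. The 4 called genes were PaChr24.24 (log2 fold change 8.30), PaChr24.256 (7.89), PaChr24.82 (6.76), which the study names GATA2 after a family of transcription factors, and PaChr24.16 (5.87), which was added after its values had been seen, each with an edgeR adjusted p of 0.0481. The median log2 fold change of the 104 was 4.10, and that of all genes was 0.04.

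Of 27 genes of cohesin, condensin, the centromere and spindle, cyclins, replication and cytokinesis, edgeR called 0 and DESeq2 called 0, against 0.018% higher by edgeR and 2.9% in either direction by DESeq2 over all genes. Of the 27, 2 had an unadjusted p under 0.05, against 3305 of 33256 genes, so these counts do not set the list apart from other genes. Their log2 fold changes ran from -1.37 to 1.147 with a median of 0.50, against 0.04 for all genes. Above 0 were 22 of 27, against 17396 of 33256 genes. PaChr18.319 (RAD21.1), a kleisin subunit and so a partner of SCC3 in the ring, had 20.65, 321 and 46.3 CPM in NAint61, NAint113 and NAint191, against 237, 178 and 81.3 CPM in EU60, EU78 and EU620. NAint113 lay above the 3 European libraries and the other invasive libraries below them (log2 fold change -1.37, SE 0.98, edgeR adjusted p = 0.633). PaChr12.1256 (CAP-C), an SMC subunit of condensin, had a log2 fold change of 0.75 (SE 0.34, edgeR adjusted p = 0.514). The largest positive values were 1.147 for PaChr23.812 (POK2), a kinesin that guides the division plane, and 1.13 for PaChr1.1077 (NACK1), a kinesin of the cell plate.

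Genes of similar pattern were sought across the 29 clusters, by the Pearson r of log2(CPM + 1) averaged over the 6 libraries, among 11155 genes with at least 5 CPM in each library, a minimum that leaves out PaChr24.218, PaChr24.240, PaChr21.972 and most B chromosome genes as candidates. For PaChr24.218 the 5 most alike were PaChr1.1021 (mean r 0.54), PaChr4.1912, PaChr23.440, PaChr19.586 and PaChr11.199 (0.49). For PaChr24.240 they were PaChr20.588 (0.40), PaChr18.629, PaChr4.1696, PaChr25.416 and PaChr10.340 (0.37), the last being the FBN4 marker of parenchyma 1. For PaChr10.167 they were PaChr8.465 (0.61), PaChr14.852, PaChr9.670, PaChr5.2076 and PaChr22.709 (0.52), and for PaChr21.972 they were PaChr25.662 (0.66), PaChr8.462, PaChr1.1147, PaChr13.1668 and PaChr19.1012 (0.57). The 95th percentile of all candidates was 0.31, 0.23, 0.32 and 0.37 for PaChr24.218, PaChr24.240, PaChr10.167 and PaChr21.972. Near-zero European levels lower the mean for the B copies: over the invasive libraries alone, chosen after the data were seen, the closest gene to PaChr24.218 was again PaChr1.1021 (0.86), and that to PaChr24.240 was PaChr19.62 (0.80). Over the invasive libraries, all 5 genes named for PaChr24.218 stayed among its 5 closest. Only 1 of 5 stayed for PaChr24.240, 2 for PaChr10.167 and 2 for PaChr21.972.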

How the data were processed

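For the single-cell libraries the authors deposited raw UMI counts per gene and cell, made with Cell Ranger 8.0 on 3′ libraries and the reed assembly with gene models transferred to it; the submitters' processing notes also name Scanpy. For the section they deposited raw UMI counts per gene in segmented cells, from STAR alignments, with BSTMatrix after Cellpose segmentation. No count was normalized.

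Cells with under 500 genes (2044), or over 30% of UMIs on 77 scaffold features standing in for the chloroplast share (31), were removed. A fixed doublet score marked 3 cells, so the share of top-scoring cells that the study gives for each library was removed (7321). Cells were clustered without the 4 genes on 35 components aligned by Harmony, and clusters were named by the study's markers. UMIs were summed per library, tissue or cluster, genes under 10 counts in every library were dropped, and edgeR 4.0.16 was fitted with mean reads per cell as a covariate, after the study's model; DESeq2 1.42.0 was an alternative. CPM is UMIs per 1000000 UMIs of a library. The test was checked on simulated counts. Replicate numbers were not treated as pairs. Alternatives were other covariates, normalizations, filters, resolutions and each library left out. Intervals cover counting error only.

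The 4 genes and all lists were chosen with earlier results of these data known. Named genes are the 4, the 5 most alike to each across clusters, the cohesin and condensin genes and the 3 genes of largest absolute fold change in the chromosome cycle list, the 3 called B chromosome genes of largest fold change, PaChr24.43 and PaChr24.82.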

Additional observations from a re-analysis of the deposited data

Results flagged for a closer look

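The B copies also appeared in barcodes outside the comparisons above, those removed because they held under 500 genes. In the 1294 such barcodes of the invasive libraries, PaChr24.240 gave 135 UMIs (189 CPM) and PaChr24.218 gave 30 UMIs (41.9 CPM), while in the 750 such barcodes of the European libraries both gave 0 UMIs, which allows up to 6.98 CPM over the group (3 counts of 429798 UMIs). Against that European ceiling, the pooled invasive level was 27.0-fold higher for PaChr24.240 and 6.003-fold higher for PaChr24.218. Counting error of the invasive level is not included in these folds. Per library, PaChr24.240 had 172, 199 and 235 CPM in the removed barcodes of NAint61, NAint113 and NAint191. PaChr24.218 had 33.4, 66.2 and 11.8 CPM there, on 13, 16 and 1 UMIs. Its level in NAint191 lay below the 95% upper limits of the single European libraries, 22.9 to 28.0 CPM.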

How the results depend on the processing

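Of 270 alternative values, 174 were rated the same as the main value, by a rule that differed between kinds of value. Fits and library tests had to keep their direction and their side of the threshold. Permutation tests between populations cannot pass that threshold, so only direction counted for them. Counts of calls could change a little, and no call in either setting counted as the same. Shares and co-detection had to stay within 1 SD, and section levels and shares within the counting interval. In the whole shoot, both B copies were called under DESeq2, without a covariate, with a batch term, with RLE size factors, with no count minimum, with doublets kept and with all deposited cells. Leaving out 1 library moved PaChr24.218 between 9.61 and 10.02 and PaChr24.240 between 10.01 and 10.35 on the log2 scale, and 4 of 6 such fits lost the call. Without EU620 and NAint113 they were 9.34 and 9.62, not called, and PaChr21.972 reversed to -0.064. Replicate numbers were not treated as pairs. The deviations of same-numbered plants correlated at 0.04, 0.67 and 0.76, and 4 of 6 plants correlated best with their own number. The pair at 0.67 (NAint113 and EU78) shares batch 1, and the pair at 0.76 (NAint191 and EU620) shares batch 2. For these plants number and batch cannot be told apart. With the number as a replicate block, PaChr24.218 was 10.01 and PaChr24.240 10.18 (edgeR adjusted p = 0.0194 for both).

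The number of tissues with a call for PaChr24.218, 1 in the report, was 5 with DESeq2, 4 with no count minimum, 3 without EU620 and NAint113, 2 with doublets kept, a batch term, the replicate block or resolution 1.2, 0 without the covariate and 0 to 2 with 1 library left out. For PaChr24.240, 2 in the report, it was 5 with DESeq2, 4 with no count minimum, 0 without the covariate and 0 to 2 with 1 library left out. The number of clusters for PaChr24.218, 4 in the report, was 22 with DESeq2, 22 with no count minimum, 10 with the replicate block, 8 without EU620 and NAint113, 7 with a batch term, 2 without the covariate and 0 to 5 with 1 library left out. For PaChr24.240, 10 in the report, it was 29 with DESeq2, 28 with no count minimum, 16 with the replicate block, 16 with a batch term, 4 without the covariate and 1 to 11 with 1 library left out. The cause was not tested.

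The difference between populations in the log2 ratio of PaChr24.218 to PaChr24.240, 0.01 in the report, reversed to -0.20 with all deposited cells, -0.20 with doublets kept and -1.87 with clusters weighted equally, and was -0.43 to 0.27 with 1 library left out (-0.04 without NAint191, -0.43 without EU620), on few European UMIs of PaChr24.218. The ratio itself was -1.15 with clusters weighted equally (exact sign-flip p = 0.0938). With 1 library left out it was -2.20 to -1.92, and that of PaChr10.167 to PaChr21.972 was 0.53 to 0.85, each at an exact p of 0.0625, the smallest that 5 libraries allow. Thinned to 2000 UMIs, cells with a UMI were 5.2% of invasive and 0% of European cells for PaChr24.218, 18.9% and 0.0206% for PaChr24.240, 2.2% and 2.17% for PaChr10.167, and 1.78% and 1.21% for PaChr21.972. Observed over expected pairs in thinned cells were 1.640 for the B copies, 1.806 for the homologues, 1.46 for PaChr24.218 with PaChr10.167, 1.099 for PaChr24.218 with PaChr21.972 (2.2, 0.79 and 0.32 in NAint61, NAint113 and NAint191, on 16, 9 and 1 cells, and 0.555 without NAint61), 1.42 for PaChr24.240 with PaChr10.167 and 1.59 for PaChr24.240 with PaChr21.972.

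In segmented cells with at least 100 genes, the shares with a UMI were 14.5%, 8.518%, 3.25% and 0.879% for PaChr24.218, PaChr24.240, PaChr10.167 and PaChr21.972, and Moran's I was 0.121, 0.102, 0.0823 and 0.0719. Over 12 neighbours Moran's I was 0.102, 0.0768, 0.052 and 0.0418 in the same order. European levels of the B copies rest on 1 to 10 UMIs per library, which limits every fold change given for them.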
